A study of Mus musculus with 12 samples.

Results

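The 35 genes described here encode enzymes that break down fatty acids in mitochondria and peroxisomes, the ketone body enzyme Bdh1, and the nuclear receptor gene Ppara with several of its targets. They are listed by gene name, with no measured value in the rule, but the list was drawn up with earlier results of these data known. Each of the 35 symbols matched 1 of the 35709 Ensembl identifiers of the deposited table. All 35 passed the filter on low values, which left 20244 genes for testing. Of the 35, 18 encode mitochondrial proteins of fatty acid oxidation or ketone metabolism and 7 encode peroxisomal enzymes. The other 10 are in neither list because they act elsewhere, act in both organelles or are regulators.

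The genes were measured by RNA-seq in hepatocytes of C57BL/6J mice, males 8 to 10 weeks old, in 4 groups of 3 samples. Alb-R3 CCl4 and Alb-R3 oil came from mice labelled as having the growth factor receptor gene Fgfr3 deleted in hepatocytes, and Alb-Cre CCl4 and Alb-Cre oil came from control mice that carry Cre recombinase driven by the albumin promoter, which acts in hepatocytes. The CCl4 groups received carbon tetrachloride, a toxicant that hepatocytes of the pericentral zone convert into a radical, at 0.4 mg per g body weight by intraperitoneal injection in olive oil. The oil groups received olive oil, and all samples were taken 48 h later by Liberase perfusion, differential centrifugation and Percoll. The sources used here do not say which part of Fgfr3 is missing. Nor do the labels say whether samples with different numbers are different animals, so a p-value here reflects only sample-to-sample spread, which can be technical in part.

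Fatty acids are activated to acyl-CoA by synthetases such as Acsl1. Long-chain acyl groups cross into mitochondria through the carnitine shuttle, in which Cpt1a is the step most often described as controlling entry, and are then shortened in repeated cycles by acyl-CoA dehydrogenases, the trifunctional protein and thiolases. Peroxisomes shorten very long, branched and dicarboxylic chains with their own enzymes. In liver the acetyl-CoA made in mitochondria feeds the synthesis of ketone bodies, and the fatty acid-activated receptor PPARA drives many genes of both organelles, the peroxisomal ones strongly in rodents.

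Library totals ran from 27200000 to 38800000 normalized counts, and depth from 28000000 to 39600000 estimated reads. The totals were 27215000 to 35544000 in Alb-R3 CCl4, against 35305000 to 38829000 in Alb-R3 oil. They were 28839000 to 32049000 in Alb-Cre CCl4, against 34700000 to 35466000 in Alb-Cre oil. Totals thus differed with treatment, and log2 fold changes after CCl4 depend on the scaling. Fgfr3 was at 478, 372 and 382 normalized counts in Alb-R3 CCl4 and at 523, 651 and 1109 in Alb-R3 oil, against 951, 706 and 753 in Alb-Cre CCl4 and 735, 888 and 988 in Alb-Cre oil. The library labelled Alb-R3 oil replicate 3 thus had the highest Fgfr3 of the 12, against its label, and it enters each value given for Alb-R3 oil. Alb-R3 CCl4 replicate 1 also stood apart, with 32.3% of its normalized counts from mitochondrially encoded genes, against 6.22% to 12.8% in the other 11 libraries. The summed hepatocyte markers took 5.54% of its normalized counts, against 7.69% to 11.2% in the other 11. The 9 hepatocyte markers with a row in the table were detected in each of the 12 libraries.

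Expression levels, compared between genes per transcript length as FPKM, covered a wide range in Alb-Cre oil. Fabp1, the fatty acid-binding protein of liver, had the highest mean of the 35 genes at 8550 ± 1924 FPKM (SD, n = 3). The peroxisomal thiolase gene Acaa1b followed at 1630 ± 780 FPKM and the mitochondrial thiolase gene Acaa2 at 951 ± 63.4 FPKM. Etfb, a subunit of the electron transfer flavoprotein, had 602 ± 160 FPKM, which lay below Acaa2 by more than the SD of either, whereas Acaa1b and Acaa2 overlapped within 1 SD. The lowest 3 were the thioesterase gene Acot3 at 6.31 ± 4.68 FPKM, the kinase gene Pdk4 at 3.73 ± 3.65 FPKM and the thioesterase gene Acot2 at 2.01 ± 1.35 FPKM, and these 3 overlapped within 1 SD.

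The thiolases Acaa1a and Acaa1b catalyse the last step of the peroxisomal cycle, and several results below rest on telling their transcripts apart. Both lie on chromosome 9 (GRCm38), Acaa1a at 119339676 to 119350299 on the plus strand and Acaa1b at 119148023 to 119157093 on the minus strand. Their coding sequences, each 1275 bases, were identical at 1231 bases (96.5%), and the longest identical run was 327 bases. The stretch below (coding bases 460 to 549, GENCODE M21 transcripts) differs at 13 of 90 bases, shown in capitals.

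Acaa1a: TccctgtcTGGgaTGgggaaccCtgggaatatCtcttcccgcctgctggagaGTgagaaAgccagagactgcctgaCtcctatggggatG

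Acaa1b: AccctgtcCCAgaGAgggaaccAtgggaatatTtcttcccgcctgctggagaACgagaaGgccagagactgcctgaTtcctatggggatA

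Of the 31-base words in Acaa1a transcripts, 35.3% also occurred in Acaa1b, and of those in Acaa1b 45.7% occurred in Acaa1a. The sources used here do not say how the counting divided shared reads, so the values of the pair are uncertain to that extent. The same limit holds for Acot1, Acot2 and Acot3, for which 38.7%, 37.3% and 23.1% of such words occurred in another gene, and for Hadhb and Etfb, which shared 62.1% and 62.0%, mostly with the predicted genes Gm13910 and Gm45233.

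Acaa1a fell after CCl4 in both genotypes. It had 3535, 3504 and 2795 normalized counts in Alb-R3 CCl4, against 6525, 6751 and 7570 in Alb-R3 oil. It had 4093, 3499 and 4197 normalized counts in Alb-Cre CCl4, against 6763, 4984 and 7762 in Alb-Cre oil. Each CCl4 sample lay below each oil sample of its genotype. The log2 fold change was -1.09 ± 0.18 (SE) in Alb-R3 (limma, adjusted p = 0.00146) and -0.71 ± 0.18 in Alb-Cre (adjusted p = 0.0456). In Alb-R3 the call held without any 1 of the 12 libraries. In Alb-Cre 9 libraries each decided it. Leaving out Alb-Cre oil replicate 1 gave -0.67 (adjusted p = 0.154), and leaving out Alb-Cre oil replicate 3 gave -0.57 (0.153). Leaving out replicates 1, 2 and 3 of Alb-Cre CCl4 in turn gave -0.74 (0.0969), -0.63 (0.185) and -0.76 (0.0941). The log2 fold change stayed at -0.71 when Alb-R3 oil replicate 1 (0.0721), Alb-R3 oil replicate 2 (0.0677), the library labelled Alb-R3 oil replicate 3 (0.0572) or Alb-R3 CCl4 replicate 2 (0.0601) was left out.

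Across the 35 genes, 6 fell and 0 rose after CCl4 in Alb-R3 hepatocytes at an adjusted p under 0.05 in limma, which is 17.1% of the genes lower. Among all 20244 genes tested, 17.8% passed in either direction and 6.92% were lower. At an unadjusted p under 0.05 the number of the 35 was 10 (28.6%), where 30.8% of all genes were below it. The median log2 fold change was -0.36 over the 35 genes and 0.0016 over all genes tested, and the fold was below 0 for 31 of the 35. In Alb-Cre hepatocytes 1 gene fell and 0 rose, or 2.86% lower, where 4.45% of all genes passed in either direction and 0.988% were lower. The median was -0.08 over the 35 genes and 0.017 over all genes, and 4 of the 35 (11.4%) had an unadjusted p under 0.05, where 17.1% of all genes did. The 4 became 1 when replicate 2 of Alb-Cre CCl4 was left out, 10 when its replicate 3 was, and 7 when replicate 1 of Alb-R3 CCl4 was. In these bulk samples fewer cells of a type and less RNA per cell cannot be told apart. Without Alb-R3 CCl4 replicate 1 the genes that fell in Alb-R3 were Acaa1a and Acot12, 2 of 35 or 5.71%, where 6.21% of all genes in that fit were lower. Without it the median over the 35 was -0.10. The count in Alb-R3 was also 2 when either Alb-R3 oil replicate 1 or Alb-R3 oil replicate 2 was left out, where 3.63% and 3.99% of all genes were lower. Of 11 other settings, the call of Acaa1a in Alb-R3 held in 11, that of Acot12 in 9, Eci1 in 6, Acsl1 and Acaa1b in 5 each and Decr2 in 4, and that of Acaa1a in Alb-Cre in 4.

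**Figure D1:**
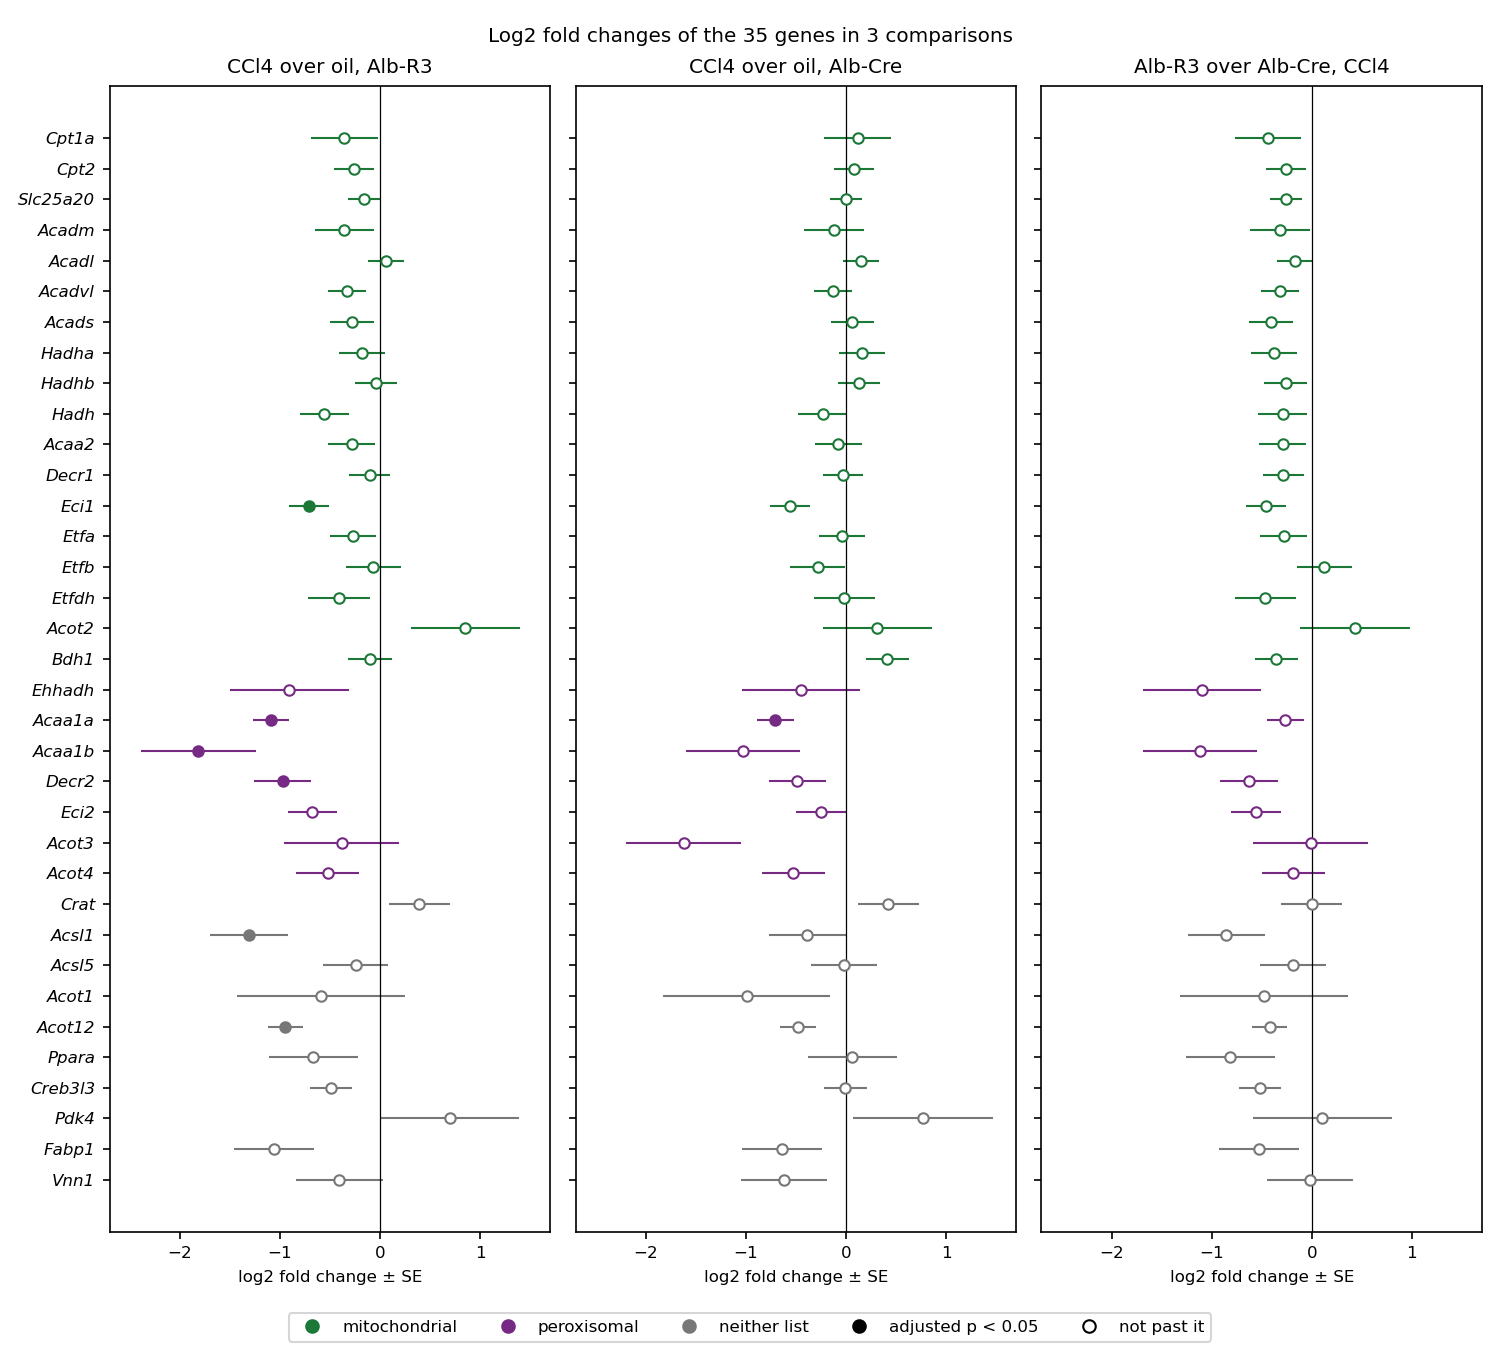
Log2 fold changes (x axis, on the log2(normalized count + 1) scale, ± SE) of the 35 genes (rows) for CCl4 over oil in Alb-R3, CCl4 over oil in Alb-Cre, and Alb-R3 over Alb-Cre after CCl4. Filled points passed the threshold of 0.05. The 6 filled points of the Alb-R3 panel and the 1 of the Alb-Cre panel lie below 0, and in these 2 panels each peroxisomal gene lies to the left of the mitochondrial median, which depends on the scaling.

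Of the 5 enzymes of the peroxisomal cycle, 3 fell in Alb-R3 after CCl4 (Acaa1a, Acaa1b and Decr2) and Acaa1a fell in Alb-Cre. Acaa1b had 6306, 22650 and 17670 normalized counts in Alb-R3 CCl4, against 49780, 42480 and 52100 in Alb-R3 oil. The groups did not overlap, and the mean was 32.3% of that after oil. The log2 fold change was -1.82 ± 0.57 (limma, adjusted p = 0.0435). The Acaa1b call was lost without any of 7 libraries: Alb-R3 oil replicate 1 (-1.79, adjusted p = 0.111), Alb-R3 oil replicate 2 (-1.90, 0.0891), the library labelled Alb-R3 oil replicate 3 (-1.76, 0.104), Alb-R3 CCl4 replicate 1 (-1.26, 0.127), Alb-R3 CCl4 replicate 3 (-2.0, 0.0581), Alb-Cre oil replicate 1 (-1.82, 0.0592) and Alb-Cre CCl4 replicate 1 (-1.82, 0.0585). In Alb-Cre it had 33260, 12480 and 61990 normalized counts after CCl4, against 57000, 38470 and 100300 after oil. These groups overlapped, with a log2 fold change of -1.03 ± 0.57 (adjusted p = 0.402, 95% interval -2.26 to 0.20).

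Decr2, the peroxisomal dienoyl-CoA reductase needed for unsaturated chains, had 1843, 3972 and 4038 normalized counts in Alb-R3 CCl4, against 6410, 6949 and 5014 in Alb-R3 oil. Its groups did not overlap, and the log2 fold change was -0.97 ± 0.29 (limma, adjusted p = 0.0325). Alb-R3 CCl4 replicate 1 was the lowest sample, and without it the log2 fold change was -0.60 (adjusted p = 0.0776). The call was also lost without Alb-R3 oil replicate 1 (-0.93, 0.0986) and without Alb-R3 oil replicate 2 (-0.87, 0.111). In Alb-Cre the values of Decr2 were 4737, 3875 and 5929 normalized counts after CCl4, against 8375, 5912 and 6057 after oil, and overlapped by 1 sample (log2 fold change -0.49 ± 0.29, adjusted p = 0.436).

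Ehhadh, the bifunctional enzyme that hydrates and oxidises acyl-CoA in peroxisomes, was the most variable of the 5. It had 1958, 6110 and 7522 normalized counts in Alb-R3 CCl4, against 9172, 9681 and 6688 in Alb-R3 oil. It had 8664, 3770 and 27030 normalized counts in Alb-Cre CCl4, against 15600, 11010 and 13060 in Alb-Cre oil. Alb-Cre CCl4 replicate 3 was the highest of the 12 samples and Alb-Cre CCl4 replicate 2 the second lowest. The log2 fold change was -0.91 ± 0.59 in Alb-R3 (adjusted p = 0.331) and -0.45 ± 0.59 in Alb-Cre (adjusted p = 0.785). Eci2, the peroxisomal enoyl-CoA isomerase, did not pass in Alb-R3 (-0.68 ± 0.25, adjusted p = 0.0773) although its groups did not overlap.

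**Figure D2:**
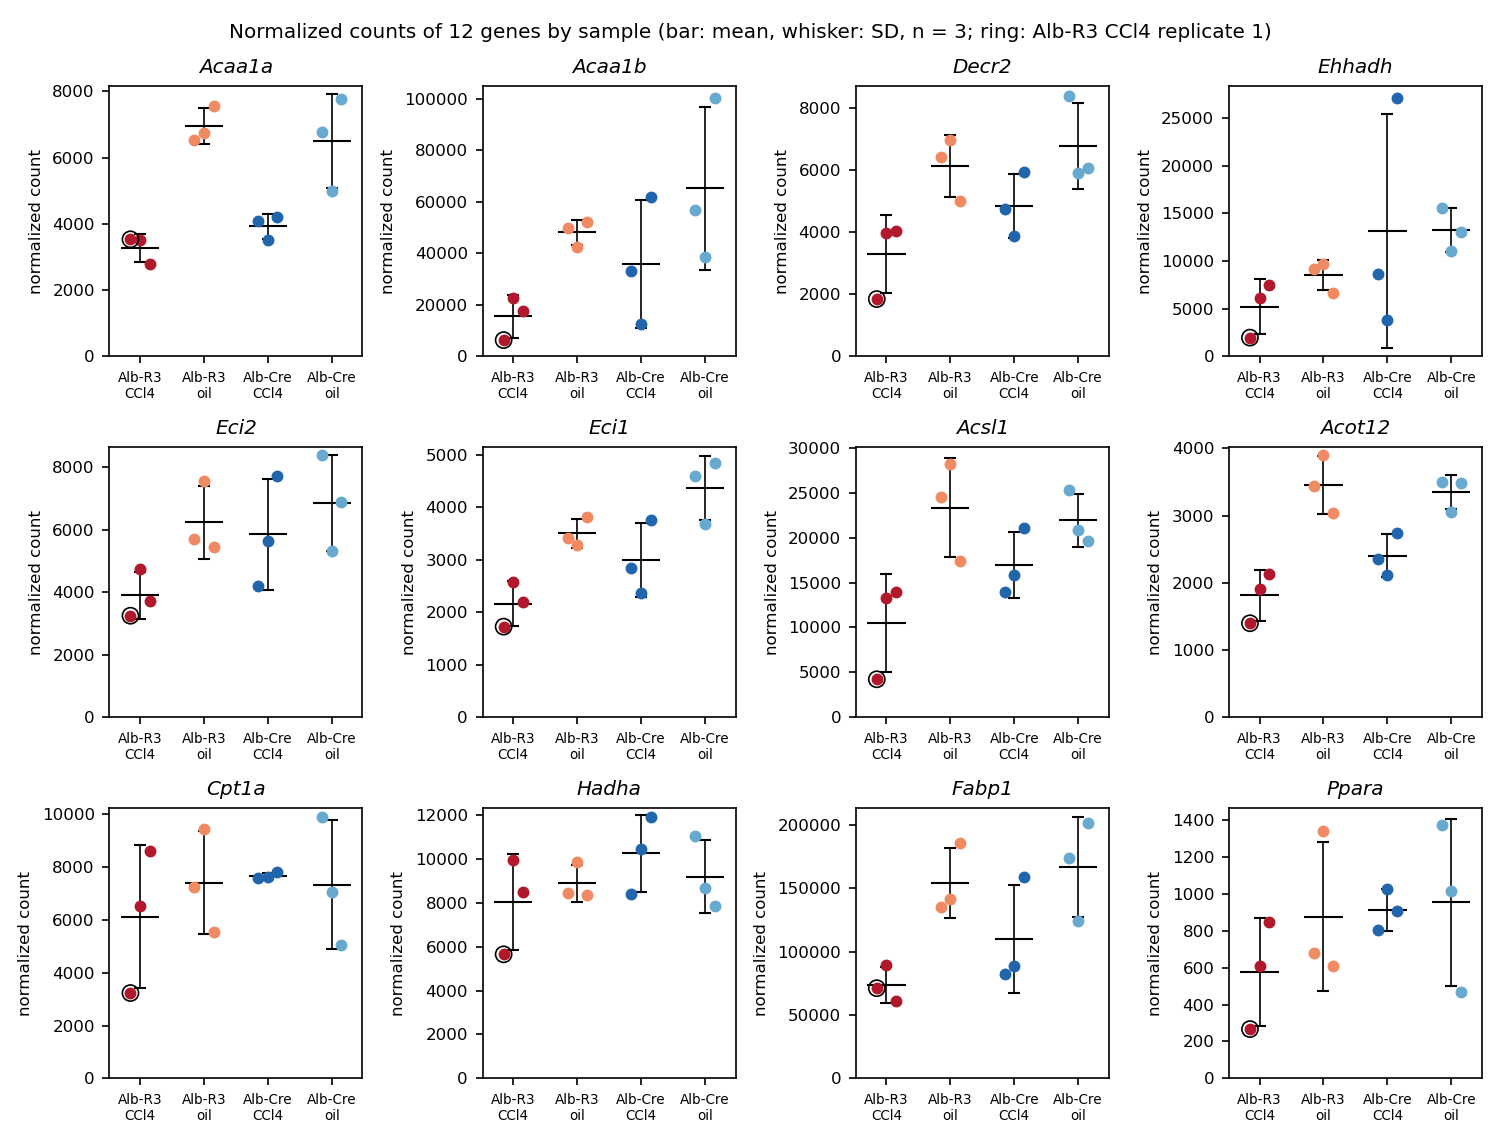
Normalized counts (y axis, from 0) of 12 of the 35 genes in each sample, by group (x axis), with the mean as a bar and the SD as a whisker (n = 3). The ring marks Alb-R3 CCl4 replicate 1, which is the lowest of the 12 samples for Acaa1b, Decr2, Ehhadh, Eci2, Eci1, Acsl1, Acot12, Cpt1a, Hadha and Ppara but not for Acaa1a or Fabp1.

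Among the 10 enzymes of the mitochondrial cycle, only Eci1 passed limma's test in Alb-R3. In Alb-Cre 0 of the 10 passed, and Eci1 was the 1 with an unadjusted p under 0.05. Eci1 encodes the mitochondrial enoyl-CoA isomerase, which repositions double bonds as Eci2 does in peroxisomes. It had 1728, 2584 and 2193 normalized counts in Alb-R3 CCl4, against 3410, 3291 and 3822 in Alb-R3 oil. It had 2848, 2377 and 3763 normalized counts in Alb-Cre CCl4, against 4592, 3679 and 4850 in Alb-Cre oil, with an overlap of 1 sample. The log2 fold change was -0.71 ± 0.20 in Alb-R3 (limma, adjusted p = 0.0263) and -0.56 ± 0.20 in Alb-Cre (adjusted p = 0.155). The Eci1 call was lost without Alb-R3 CCl4 replicate 1 (-0.56, adjusted p = 0.0725), Alb-R3 CCl4 replicate 3 (-0.73, 0.0538), Alb-R3 oil replicate 1 (-0.73, 0.0711), Alb-R3 oil replicate 2 (-0.75, 0.0562) and the library labelled Alb-R3 oil replicate 3 (-0.65, 0.0848).

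The other 9 mitochondrial cycle enzymes had log2 fold changes between -0.56 (Hadh, the short-chain hydroxyacyl-CoA dehydrogenase, adjusted p = 0.141) and 0.06 (Acadl, the long-chain acyl-CoA dehydrogenase, adjusted p = 0.859) in Alb-R3. In Alb-Cre they lay between -0.23 (Hadh) and 0.16 (Hadha). Hadha and Hadhb, the alpha and beta subunits of the trifunctional protein, had log2 fold changes smaller than their standard errors. Hadha had a log2 fold change of -0.18 ± 0.23 in Alb-R3 and 0.16 ± 0.23 in Alb-Cre, and Hadhb of -0.04 ± 0.21 and 0.13 ± 0.21. These 2 genes are transcribed from opposite strands of chromosome 5, and their RefSeq start sites lie 273 bases apart (GRCm38.p6). The promoter window of Hadhb (chr5:30155003-30155302, plus strand) shows this arrangement, with the 228 bases that also belong to the window of Hadha in capitals.

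Hadhb: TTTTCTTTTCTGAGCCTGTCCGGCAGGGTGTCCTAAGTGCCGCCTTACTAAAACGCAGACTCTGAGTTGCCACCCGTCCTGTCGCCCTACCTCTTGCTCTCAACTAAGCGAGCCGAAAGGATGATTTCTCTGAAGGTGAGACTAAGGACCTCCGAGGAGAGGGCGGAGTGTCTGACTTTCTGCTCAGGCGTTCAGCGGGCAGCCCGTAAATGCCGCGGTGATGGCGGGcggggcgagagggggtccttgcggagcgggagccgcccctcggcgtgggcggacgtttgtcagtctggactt

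The carnitine shuttle and the electron transfer flavoprotein route did not pass the test. Cpt1a had 3230, 6519 and 8599 normalized counts in Alb-R3 CCl4, against 7252, 9456 and 5541 in Alb-R3 oil. It had 7569, 7616 and 7803 normalized counts in Alb-Cre CCl4, against 9905, 7050 and 5045 in Alb-Cre oil. The groups of each genotype overlapped, with log2 fold changes of -0.36 ± 0.33 in Alb-R3 (adjusted p = 0.51, 95% interval -1.07 to 0.36) and 0.12 ± 0.33 in Alb-Cre (adjusted p = 0.913, interval -0.60 to 0.83). Cpt2, which returns acyl groups to CoA inside the mitochondrion, had 2587, 4437 and 3693 normalized counts in Alb-R3 CCl4, against 4504, 4208 and 3838 in Alb-R3 oil. It had 3622, 3928 and 5089 normalized counts in Alb-Cre CCl4, against 4335, 3564 and 3969 in Alb-Cre oil. Neither pair of groups was separate, and the log2 fold changes of Cpt2 were -0.26 ± 0.20 and 0.08 ± 0.20.

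Slc25a20, the carnitine and acylcarnitine carrier, had the narrowest spread of the 35 genes (residual SD 0.17 on the log2 scale) and log2 fold changes of -0.16 ± 0.16 in Alb-R3 and 0.005 ± 0.16 in Alb-Cre. Crat, the carnitine acetyltransferase found in both organelles, had 1641, 2279 and 1807 normalized counts in Alb-R3 CCl4, against 1718, 1345 and 1293 in Alb-R3 oil. It had 1248, 1743 and 3105 normalized counts in Alb-Cre CCl4, against 1636, 962 and 1775 in Alb-Cre oil. The Crat groups overlapped in both genotypes, with log2 fold changes of 0.39 ± 0.30 and 0.42 ± 0.30 (adjusted p = 0.417 and 0.542). Etfb had 14270, 9639 and 7881 normalized counts in Alb-R3 CCl4, against 9932, 8500 and 14800 in Alb-R3 oil. It had 8380, 10950 and 9114 normalized counts in Alb-Cre CCl4, against 10740, 9146 and 15350 in Alb-Cre oil. Etfb, Etfa and the acceptor enzyme Etfdh had log2 fold changes between -0.41 and -0.07 in Alb-R3 and between -0.28 and -0.02 in Alb-Cre.

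Acyl-CoA synthesis and hydrolysis held the other 2 genes that fell in Alb-R3. Acsl1, the main long-chain acyl-CoA synthetase of liver, had 4231, 13320 and 13970 normalized counts in Alb-R3 CCl4, against 24560, 28140 and 17340 in Alb-R3 oil. It had 13940, 15850 and 21020 normalized counts in Alb-Cre CCl4, against 25290, 20810 and 19630 in Alb-Cre oil. The Alb-R3 groups did not overlap, the Alb-Cre groups did, and the log2 fold change was -1.31 ± 0.39 in Alb-R3 (limma, adjusted p = 0.033) and -0.38 ± 0.39 in Alb-Cre (adjusted p = 0.696). The Acsl1 call was lost without Alb-R3 CCl4 replicate 1 (-0.75, adjusted p = 0.0541), Alb-R3 oil replicate 1 (-1.26, 0.0987) and Alb-R3 oil replicate 2 (-1.16, 0.115). Acsl5, a second long-chain synthetase, had log2 fold changes of -0.25 ± 0.33 and -0.02 ± 0.33.

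Acot12, which hydrolyses acetyl-CoA in the cytosol, had 1399, 1907 and 2131 normalized counts in Alb-R3 CCl4, against 3438, 3895 and 3038 in Alb-R3 oil. It had 2355, 2117 and 2743 normalized counts in Alb-Cre CCl4, against 3500, 3056 and 3489 in Alb-Cre oil. The groups of each genotype were separate, and the log2 fold change was -0.95 ± 0.18 in Alb-R3 (limma, adjusted p = 0.00311) and -0.48 ± 0.18 in Alb-Cre (adjusted p = 0.173). The Alb-R3 call of Acot12 held without any 1 of the 12 libraries and was lost with nuclear-encoded genes rescaled to equal totals (-0.53, adjusted p = 0.0525) and in the FPKM values (-0.68, 0.0715).

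Acot1 to Acot4 lie in 1 cluster on chromosome 12 and encode acyl-CoA thioesterases of the cytosol (Acot1), mitochondria (Acot2) and peroxisomes (Acot3 and Acot4), the last of which acts on succinyl-CoA. Acot1 had 93.9, 810 and 517 normalized counts in Alb-R3 CCl4, against 609, 520 and 427 in Alb-R3 oil. It had 363, 144 and 2030 normalized counts in Alb-Cre CCl4, against 1112, 610 and 1236 in Alb-Cre oil, and its residual SD of 1.30 on the log2 scale was the widest of the 35 genes. Acot2 had 182, 232 and 261 normalized counts in Alb-R3 CCl4, against 145, 113 and 113 in Alb-R3 oil and the CCl4 samples lay above the oil samples (log2 fold change 0.85 ± 0.55, adjusted p = 0.323). It had 132, 80.0 and 419 normalized counts in Alb-Cre CCl4, against 135, 62.7 and 271 in Alb-Cre oil, which overlapped. Acot3 had 95.9, 118 and 199 normalized counts in Alb-R3 CCl4, against 244, 138 and 149 in Alb-R3 oil. It had 90.3, 84.6 and 299 normalized counts in Alb-Cre CCl4, against 438, 169 and 918 in Alb-Cre oil. The Acot3 log2 fold change was -1.62 ± 0.57 in Alb-Cre (adjusted p = 0.154) and -0.38 ± 0.57 in Alb-R3 (adjusted p = 0.7). Without Alb-Cre oil replicate 2 it passed in Alb-Cre (-2.26, adjusted p = 0.039).

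**Figure D3:**
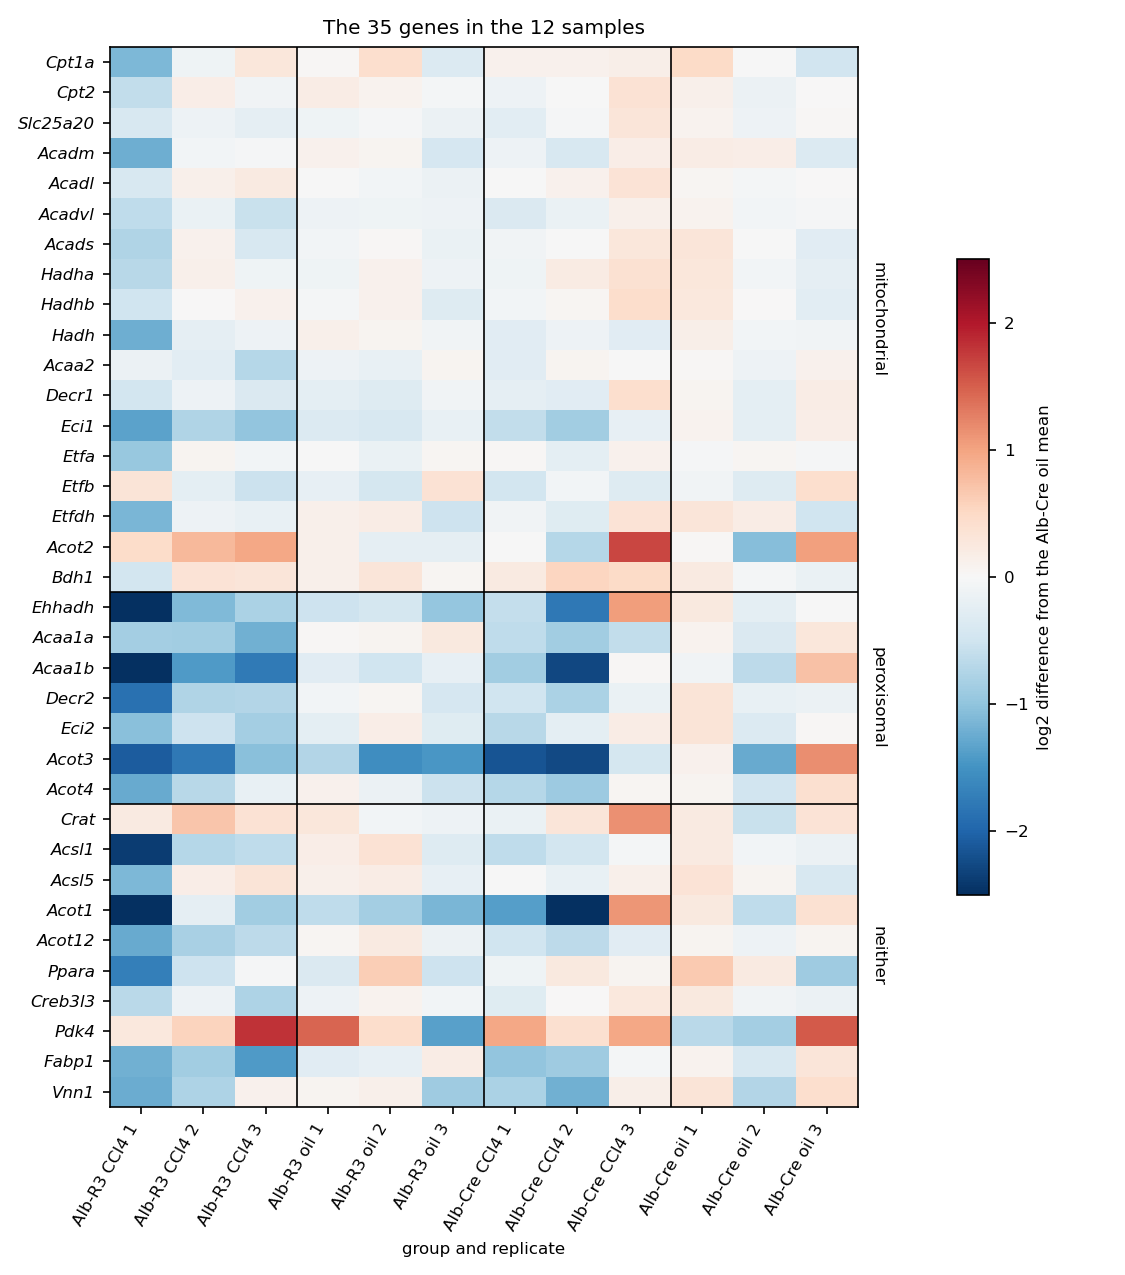
Log2 difference of each of the 35 genes (rows) from its Alb-Cre oil mean in each of the 12 samples (columns, by group and replicate); blue is lower, red is higher, and differences beyond the ends of the scale take the end colour. The column of Alb-R3 CCl4 replicate 1 is blue for 16 of the 18 mitochondrial genes and for all 7 peroxisomal genes, while the other 2 Alb-R3 CCl4 columns are blue for all 7 peroxisomal genes and for 10 and 13 of the mitochondrial ones.

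Bdh1, which interconverts acetoacetate and 3-hydroxybutyrate, passed the test in neither genotype. It had 4764, 8322 and 8136 normalized counts in Alb-R3 CCl4, against 7143, 8136 and 6823 in Alb-R3 oil. It had 7689, 9536 and 9167 normalized counts in Alb-Cre CCl4, against 7664, 6332 and 5856 in Alb-Cre oil. Each Alb-Cre CCl4 sample lay above each Alb-Cre oil sample, by as little as 7689 against 7664, and the log2 fold change was 0.41 ± 0.22 in Alb-Cre (adjusted p = 0.374) and -0.10 ± 0.22 in Alb-R3 (adjusted p = 0.805).

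Ppara itself had 267, 609 and 850 normalized counts in Alb-R3 CCl4, against 681, 1341 and 608 in Alb-R3 oil. It had 805 and 909 normalized counts in Alb-Cre CCl4 replicates 1 and 3, with a mean of 914 ± 112 over that group (SD, n = 3), against 1375, 1019 and 470 in Alb-Cre oil. Oil samples alone ran from 470 to 1375, so the log2 fold changes of -0.67 ± 0.44 in Alb-R3 (adjusted p = 0.337) and 0.06 ± 0.44 in Alb-Cre (adjusted p = 0.973) lay within a wide spread. Creb3l3, a liver transcription factor of the endoplasmic reticulum that acts with PPARA in fasting, had -0.49 ± 0.21 (adjusted p = 0.137) and -0.01 ± 0.21. Without Alb-R3 CCl4 replicate 2 Creb3l3 passed in Alb-R3 (-0.68, adjusted p = 0.0476). Pdk4, the kinase that shuts off pyruvate dehydrogenase when fat is burned, had 175, 214 and 509 normalized counts in Alb-R3 CCl4, against 401, 198 and 56.0 in Alb-R3 oil. It had 283, 190 and 283 normalized counts in Alb-Cre CCl4, against 90.2, 79.5 and 420 in Alb-Cre oil, with overlap in both genotypes and log2 fold changes of 0.69 ± 0.70 and 0.77 ± 0.70. Vnn1, a PPARA target that makes cysteamine, had -0.41 ± 0.43 and -0.62 ± 0.43.

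Fabp1 had 71120, 89040 and 61280 normalized counts in Alb-R3 CCl4, against 135000, 141100 and 185700 in Alb-R3 oil. It had 82080, 88610 and 159100 normalized counts in Alb-Cre CCl4, against 174100, 124400 and 201800 in Alb-Cre oil. The Alb-R3 groups did not overlap, but the log2 fold change of -1.06 ± 0.40 missed the threshold (adjusted p = 0.085), and in Alb-Cre it was -0.64 ± 0.40 (adjusted p = 0.468). Without the mean-variance trend Fabp1 passed in Alb-R3 (adjusted p = 0.0386).

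PPARA binds DNA with its partner RXR at direct repeats of a hexamer spaced by 1 base. The motif AGGTCA, any base, AGGTCA was searched on both strands in the 300-base RefSeq promoter windows of the 31 of 35 genes that the table holds. With up to 1 mismatch 2 of the 31 genes held it (6.45%), against 0.644% of all 27025 genes with such a window. With up to 2 mismatches 6 of 31 did (19.4%), against 4.4%. The 2 were Fabp1 (chr6:71199629-71199928, plus strand, GRCm38.p6) and Acot12 (chr13:91741271-91741570, plus strand), shown with the match in capitals; both matches read on the opposite strand, 67 and 110 bases before the start.

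Fabp1: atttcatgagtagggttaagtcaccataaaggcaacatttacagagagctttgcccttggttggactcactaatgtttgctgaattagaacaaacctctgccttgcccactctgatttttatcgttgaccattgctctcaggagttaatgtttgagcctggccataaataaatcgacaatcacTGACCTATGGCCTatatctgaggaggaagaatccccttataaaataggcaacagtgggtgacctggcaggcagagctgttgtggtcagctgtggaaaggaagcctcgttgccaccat

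Acot12: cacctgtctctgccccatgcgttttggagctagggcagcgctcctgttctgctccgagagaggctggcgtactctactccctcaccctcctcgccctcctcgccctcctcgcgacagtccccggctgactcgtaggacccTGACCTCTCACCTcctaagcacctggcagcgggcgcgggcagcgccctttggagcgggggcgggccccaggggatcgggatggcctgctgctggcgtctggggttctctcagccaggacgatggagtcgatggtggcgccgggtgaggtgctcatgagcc

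The other 4 with up to 2 mismatches were Etfa, Slc25a20, Creb3l3 and Acot4. Acot12 fell in Alb-R3 and Fabp1 did not pass, and Acaa1a, Acaa1b, Decr2, Eci1 and Acsl1, which fell, held no match in this window. A match describes these letters and is not evidence of binding.

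The median log2 fold change after CCl4 was lower over the 7 peroxisomal genes than over the 18 mitochondrial ones in both genotypes. In Alb-R3 the median log2 fold change was -0.91 over the peroxisomal genes, with 7 of 7 below 0 and 3 past the threshold. The median over the mitochondrial genes was -0.27, with 16 of 18 below 0 and 1 past it, but it was above 0 with nuclear-encoded genes rescaled to equal totals (0.15), with quantile normalization (0.06) and in the FPKM values (0.0024). The peroxisomal median was below 0 under those 3 scalings as well (-0.49, -0.71 and -0.64). In Alb-Cre the peroxisomal median was -0.53, again with 7 of 7 below 0 and 1 past the threshold, and the mitochondrial median was -0.0065, with 9 of 18 below 0. The mitochondrial median in Alb-Cre was above 0 under the same 3 scalings (0.19, 0.21 and 0.22), with peroxisomal medians of -0.33, -0.49 and -0.30.

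The peroxisomal median minus the mitochondrial one cancels a rescaling of whole libraries. It was -0.64 in Alb-R3 and -0.52 in Alb-Cre. The pooled SD of the same difference between samples of a group was 0.26. Taken per sample from the Alb-Cre oil mean, the difference was -1.24, -0.78 and -0.74 in Alb-R3 CCl4, against -0.22, -0.15 and -0.28 in Alb-R3 oil. It was -0.57, -0.87 and -0.25 in Alb-Cre CCl4, against -0.015, -0.30 and 0.32 in Alb-Cre oil. The Alb-R3 groups were separate and the Alb-Cre groups overlapped. The 2 responses do not share samples, but the genes within each list are not independent, so the difference is given as a description with no test. Without Alb-R3 CCl4 replicate 1 the Alb-R3 medians were -0.55 and -0.04, and the difference was -0.52.

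**Figure D4:**
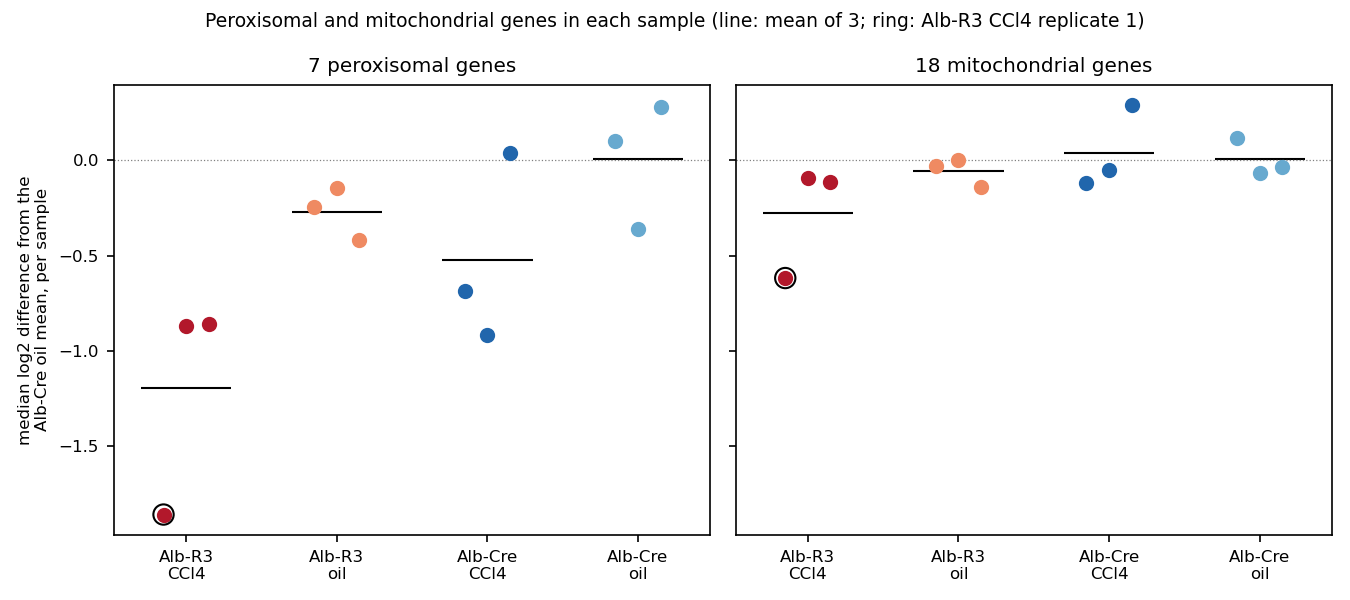
Median log2 difference from the Alb-Cre oil mean (y axis) over the 7 peroxisomal and the 18 mitochondrial genes in each sample, by group (x axis), with the mean of each group as a line. For the peroxisomal genes the Alb-Cre CCl4 samples (-0.69, -0.92 and 0.04) overlap the Alb-Cre oil samples (0.10, -0.36 and 0.28). The 3 Alb-R3 CCl4 samples lie at -1.86, -0.87 and -0.86 for the peroxisomal genes, below the 3 Alb-R3 oil samples, while 2 of them lie within the range of Alb-R3 oil for the mitochondrial genes (-0.09 and -0.11, with the ringed replicate 1 at -0.62); the mitochondrial medians depend on the scaling.

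The same order appeared in summed levels. The summed FPKM of the 7 peroxisomal genes over that of the 18 mitochondrial genes was 0.130, 0.255 and 0.246 in Alb-R3 CCl4, against 0.481, 0.454 and 0.464 in Alb-R3 oil. It was 0.362, 0.174 and 0.542 in Alb-Cre CCl4, against 0.512, 0.395 and 0.793 in Alb-Cre oil. The Alb-R3 groups were separate and the Alb-Cre groups overlapped, with Alb-Cre CCl4 replicate 3 above 2 of the Alb-Cre oil samples. Acaa1b made up 41.6% to 62.8% of the peroxisomal sum in Alb-R3 CCl4, against 65.1% to 73.4% in Alb-R3 oil, and 48.4% to 70.0% in Alb-Cre CCl4, against 67.4% to 80.4% in Alb-Cre oil. Without it the ratios were 0.0757, 0.0947 and 0.102 in Alb-R3 CCl4, against 0.139, 0.159 and 0.124 in Alb-R3 oil, and 0.112, 0.0899 and 0.163 in Alb-Cre CCl4, against 0.164, 0.129 and 0.155 in Alb-Cre oil. Peroxisomal genes also varied more between samples of a group, with a median residual SD of 0.46 on the log2 scale, against 0.27 for mitochondrial genes and 0.25 for the 5689 tested genes with a mean of at least 500 normalized counts.

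Markers of several other cell types moved with the Alb-R3 response, in which 2198 of all 20244 genes rose, against 700 in Alb-Cre. Of the 10 Kupffer cell and macrophage markers, 10 rose after CCl4 in Alb-R3 and 0 passed limma's test in Alb-Cre, where 1 had an unadjusted p under 0.05. Their summed share of normalized counts was 0.0350%, 0.00797% and 0.0110% in Alb-R3 CCl4, against 0.00229% to 0.00302% in Alb-R3 oil, and 0.00479% to 0.00632% in Alb-Cre CCl4, against 0.00359% to 0.00719% in Alb-Cre oil. Of the stellate cell and fibroblast markers 7 of 9 rose in Alb-R3, where the summed share was 0.00345% to 0.0122% after CCl4, against 0.00152% to 0.00204% after oil. In Alb-Cre 4 of 9 rose, and the share was 0.00608% to 0.00949% after CCl4, against 0.00386% to 0.00428% after oil. Of the endothelial markers 6 of 8 rose in Alb-R3, and in Alb-Cre 0 passed and 0 had an unadjusted p under 0.05. The endothelial share was 0.0079% to 0.0163% in Alb-R3 CCl4, against 0.0046% to 0.0048% in Alb-R3 oil. It was 0.0095% to 0.0160% in Alb-Cre CCl4, against 0.0084% to 0.0102% in Alb-Cre oil, so the genotypes differed mainly after oil. Monocyte and neutrophil markers rose for 2 of 6 in Alb-R3, and 0 passed in Alb-Cre. Cholangiocyte markers rose for 2 of 5 in Alb-R3, with 1 fold below 0, and for 1 of 5 in Alb-Cre. Of the T and B cell markers 0 of 4 passed in either genotype. No Kupffer cell or endothelial marker was at 0 in any library. Of the hepatocyte markers, 2 of 9 fell in Alb-R3, and the list's median log2 fold change of -0.61 lay between those of the mitochondrial and the peroxisomal genes. Their summed share did not fall in the same way. It was 5.54%, 10.9% and 11.2% in Alb-R3 CCl4, against 8.11% to 9.68% in Alb-R3 oil. In Alb-Cre the hepatocyte share was 10.7% to 10.9% after CCl4, against 7.69% to 9.93% after oil. The part of these shifts, and of the mitochondrially encoded share, in the fall of the fatty acid genes was not tested.

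Between Alb-R3 and Alb-Cre hepatocytes after CCl4, the log2 difference was below 0 for 31 of the 35 genes, but none passed limma's test at an adjusted p under 0.05, where 0.173% of all genes did. At an unadjusted p under 0.05 the number was 6 of 35 or 17.1% (Creb3l3, Acot12, Eci1, Eci2, Acsl1 and Decr2, named after their values were seen), where 7.77% of all genes were below it. The 6 became 0 when replicate 1 of Alb-R3 CCl4 was left out and 10 when its replicate 2 was, 1 when replicate 3 of Alb-Cre CCl4 was, and 2 when replicate 1 of Alb-R3 oil was. They became 0 with nuclear-encoded genes rescaled and in a fit to the groups compared, 1 without the mean-variance trend and in the FPKM values, 2 with array weights and 3 with a replicate block. With all samples the smallest adjusted p was 0.573, for Creb3l3. In 0 of the 35 did the 3 Alb-R3 samples lie below the 3 Alb-Cre samples, where 5.86% of all genes were separate in that direction. The largest log2 differences were -1.12 ± 0.57 for Acaa1b (95% interval -2.35 to 0.12), -1.10 ± 0.59 for Ehhadh (-2.37 to 0.18) and -0.85 ± 0.39 for Acsl1 (-1.69 to -0.02). On the other side stood Acot2 at 0.43 ± 0.55, Etfb at 0.12 ± 0.28 and Pdk4 at 0.11 ± 0.70. The median difference was -0.56 over the peroxisomal genes and -0.29 over the mitochondrial genes, against -0.0008 over all genes. Without Alb-R3 CCl4 replicate 1 the medians were -0.32 and -0.10, and 23 of 35 differences were below 0. With quantile normalization, array weights, FPKM values and the other settings tried, 0 of the 35 passed. Kupffer cell markers had a median log2 difference of 1.51 here, with 10 of 10 above 0 and 0 past the threshold. Of the 10, 9 had an unadjusted p under 0.05, and in 9 the Alb-R3 samples lay above the Alb-Cre samples. Hepatocyte markers had a median of -0.34, and the part of either set of markers was not tested.

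After oil none of the 35 genes passed limma's test between Alb-R3 and Alb-Cre, where 0.207% of all genes did, and 1 of 35 had an unadjusted p under 0.05, where 6.49% of all genes did (Acot3, log2 difference -1.25 ± 0.57, adjusted p = 0.761). In 3 genes the Alb-R3 samples, the library labelled Alb-R3 oil replicate 3 included, lay below the Alb-Cre samples, or 8.57% of the 35, where 5.63% of all genes were separate in that direction. These were Ehhadh (-0.64 ± 0.59), Acot1 (-0.88 ± 0.84) and Acadvl, the very-long-chain acyl-CoA dehydrogenase (-0.12 ± 0.19). For Acot1 the groups were separate by as little as 609.4 against 610.3 normalized counts. The largest positive differences were 0.19 ± 0.70 for Pdk4, 0.16 ± 0.22 for Bdh1 and 0.12 ± 0.18 for Acaa1a. The median was -0.08 over the mitochondrial genes and -0.19 over the peroxisomal ones. Kupffer cell, endothelial and stellate cell markers had medians of -1.04, -1.11 and -1.22 in the same comparison. In 6 of 10, 7 of 8 and 7 of 9 of them the Alb-R3 samples lay below the Alb-Cre samples. Of the endothelial markers 1 passed limma's test as lower. The part of these markers was not tested.

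The interaction, which tests in limma whether the CCl4 response of Alb-R3 differs from that of Alb-Cre, passed for none of the 35 genes and for 0% of all genes tested. None of the 35 had an unadjusted p under 0.05, against 1516 or 7.49% of all genes, and with array weights the numbers past the adjusted threshold were 0 of the 35 and 46 of all genes. So the 6 calls in Alb-R3 and the 1 call in Alb-Cre are not shown to differ. The interaction was -0.92 ± 0.55 for Acsl1 (95% interval -2.10 to 0.25), -0.78 ± 0.81 for Acaa1b (-2.53 to 0.96), -0.73 ± 0.62 for Ppara (-2.08 to 0.61) and -0.38 ± 0.26 for Acaa1a (-0.94 to 0.18). The largest on the positive side were 1.24 ± 0.81 for Acot3 (-0.52 to 2.99), 0.54 ± 0.78 for Acot2 and 0.40 ± 1.18 for Acot1. The smallest adjusted p was 0.768, for Acot12 (-0.46 ± 0.25, interval -1.01 to 0.08). The median interaction was -0.43 over the peroxisomal and -0.22 over the mitochondrial genes, against -0.02 over all genes, and -0.11 and -0.05 without Alb-R3 CCl4 replicate 1.

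Further enzymes of these pathways were counted from lists of genes outside the 35. Among all 20244 genes tested, 1400 (6.92%) fell and 2198 rose in Alb-R3, and 200 (0.988%) fell and 700 rose in Alb-Cre. In Alb-Cre 17.1% of all genes had an unadjusted p under 0.05. Of 28 further peroxisomal genes tested, 6 fell and 0 rose in Alb-R3, with a median log2 fold change of -0.57, and 0 passed limma's test in Alb-Cre (4 at an unadjusted p under 0.05), with a median of -0.20 that was above 0 in the FPKM values (0.03). Nudt7, a peroxisomal CoA diphosphatase, fell by 1.47 ± 0.30 on the log2 scale (limma, adjusted p = 0.0048). Phyh, the phytanoyl-CoA hydroxylase of branched-chain breakdown, had 16420, 25490 and 19940 normalized counts in Alb-R3 CCl4, against 46790, 44620 and 45850 in Alb-R3 oil (log2 fold change -1.17 ± 0.24, adjusted p = 0.0051). Acox3, a branched-chain acyl-CoA oxidase, had -1.12 ± 0.20 (adjusted p = 0.00217) and Slc27a2, a very-long-chain acyl-CoA synthetase, -1.11 ± 0.27 (adjusted p = 0.0125). The Slc27a2 call was lost without Alb-R3 oil replicate 2 (-0.99, adjusted p = 0.0561), with quantile normalization, with nuclear-encoded genes rescaled, in a fit to the groups compared and in the FPKM values. Those of Nudt7, Phyh and Acox3 held without any 1 library, and that of Phyh was lost with quantile normalization (adjusted p = 0.0585).

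Of 26 further mitochondrial and ketone genes, 8 fell and 3 rose in Alb-R3, with a median of -0.49. In Alb-Cre 0 fell and 1 rose, 8 had an unadjusted p under 0.05, and the median was -0.22, or 0.0076 in the FPKM values. These medians lay close to those of the further peroxisomal genes, and in Alb-Cre the order of the 7 peroxisomal and 18 mitochondrial genes was not seen. The 3 that rose in Alb-R3 were Oxct1, the enzyme of ketone body use that hepatocytes normally lack (2.74 ± 0.47, adjusted p = 0.00159), Acot9, a mitochondrial thioesterase (1.41 ± 0.22, adjusted p = 0.001), and Slc16a1, the monocarboxylate transporter MCT1 (1.22 ± 0.19, adjusted p = 0.000786). Oxct1 had 248, 78.4 and 98.6 normalized counts in Alb-R3 CCl4, against 15.3, 18.1 and 20.1 in Alb-R3 oil. Slc16a1 also rose in Alb-Cre (1.23 ± 0.19, adjusted p = 0.00133). Slc25a42, the mitochondrial CoA carrier, fell in Alb-R3 (-1.49 ± 0.33, adjusted p = 0.0081). These 5 calls in Alb-R3 and Alb-Cre held without any 1 library, and that of Slc25a42 was lost in the FPKM values and in a fit to the groups compared. Oxct1 is also expressed by non-hepatocytes, whose markers rose in the same samples, and the part of those cells in its rise was not tested.

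The last list held 34 further genes, partners and targets of PPARA together with related receptors and other lipid genes such as Fabp4. Of the 34, 7 fell and 6 rose in Alb-R3, with a median of -0.43. In Alb-Cre 2 fell and 3 rose, with a median of -0.27, and 13 had an unadjusted p under 0.05. Fabp4, a fatty acid-binding protein of fat cells, macrophages and capillaries, rose by 3.11 ± 0.34 on the log2 scale in Alb-R3 (limma, adjusted p = 5.87e-05), and Ucp2, a mitochondrial carrier, by 2.57 ± 0.32 (adjusted p = 0.000171). Slc27a5, the bile acid and very-long-chain acyl-CoA synthetase of liver, had 5052, 15640 and 11880 normalized counts in Alb-R3 CCl4, against 31820, 35230 and 29400 in Alb-R3 oil (-1.71 ± 0.33, adjusted p = 0.00378). Ppard, a receptor related to Ppara, rose in Alb-R3 (1.64 ± 0.39, adjusted p = 0.0113), a call lost without Alb-R3 oil replicate 2 (1.45, adjusted p = 0.0516). Pparg, the receptor of the family that favours fat storage, had the largest fold of the list in Alb-Cre, where it fell by 2.04 ± 0.43 on the log2 scale (adjusted p = 0.0136), a call lost without Alb-Cre oil replicate 1 (-2.03, 0.0546), in a fit to the groups compared and in the FPKM values. Ppard and Ucp2 also rose in Alb-Cre, calls that held in 7 and 5 of 12 fits with 1 library left out. Pparg also fell in Alb-R3, a call that held in 8 of 12 such fits. Fabp4 and Ucp2 are also expressed by macrophages, whose markers rose in the same Alb-R3 samples. In Alb-Cre Ucp2 had a mean of 951 ± 314 normalized counts after CCl4, against 403 ± 172 after oil (SD, n = 3). There 0 of 10 Kupffer cell and macrophage markers passed (median -0.22). The part of those cells in these rises was not tested.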

How the data were processed

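The authors deposited a normalized count for each gene and sample, per the file headers, a signal whose values behave as estimated counts divided by 1 factor per library. They also deposited FPKM values, per the file headers. Whole reads could not be recovered, so no count model was run. Kallisto 0.44.0, edgeR and GRCm38.p6 are listed, with no role, in the submitters' processing notes. Normalized counts were tested as log2(value + 1) in R 4.3.3 with limma 3.58.1 (empirical Bayes with a trend in the variance), fitting the 4 group means to all 12 samples, which leaves 8 residual degrees of freedom. A gene entered with a normalized count of 1 or more in 3 or more samples, which 20244 did. Fold changes on this scale understate those of low genes. P-values were Benjamini-Hochberg adjusted over all genes tested in each of the 5 comparisons, with a threshold of 0.05, and intervals are 95%. The fit was tested on simulated data. The genes and lists were chosen with earlier results of these data known. Genes named with values in each sample were 9 set by role, each gene past the threshold, and the 3 highest and 3 lowest folds of each comparison; other pathway genes were named only past the threshold, at most 4 a list and comparison. Positions are GENCODE M21 (GRCm38, 1-based), and promoters are from RefSeq. Alternatives were other normalizations, filters, pseudocounts, weights, FPKM, a replicate block, the compared groups alone and leaving out each sample.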

Additional observations from a re-analysis of the deposited data

How the results depend on the processing

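In Alb-R3, the 6 genes that fell after CCl4 became 2 with quantile normalization, 1 with nuclear-encoded genes rescaled to equal totals, 3 without the mean-variance trend, 3 without a filter on low values, 2 in a fit to the groups compared and 1 in FPKM values. In that order 5.71%, 2.86%, 8.57%, 8.57%, 5.71% and 2.86% of the 35 were lower, against 8.1%, 2.47%, 5.32%, 4.96%, 3.47% and 2.69% of all genes. Leaving out each sample gave 2 to 7. In Alb-Cre the 1 gene became 0 under each of these 6 settings and 4 with array weights (Acaa1a with Eci1, Decr2 and Acot12), and leaving out each sample gave 0 to 2. The labels do not say that replicate numbers pair the samples. The 18 correlations of same-numbered deviations ran from -0.186 to 0.196 and 3 exceeded 0.1. No differently numbered samples were set beside them, so they cannot decide whether samples were paired. With a replicate block the number was 5 in Alb-R3 and 0 in Alb-Cre. Acaa1a in Alb-R3 passed under all 11 settings and without any 1 of the 12 samples, with an adjusted p of at most 0.0211. None of the 35 genes passed between the genotypes or in the interaction under any of these. The peroxisomal minus mitochondrial median stayed below 0 throughout. In Alb-R3 it ran from -0.77 to -0.44 (array weights) and from -0.80 to -0.52 when samples were left out. In Alb-Cre these ranges were -0.69 to -0.52 and -0.74 to -0.44, after CCl4 -0.28 to -0.23 and -0.27 to -0.14, after oil -0.16 to -0.11 and -0.36 to -0.0091, and in the interaction -0.24 to -0.13 and -0.31 to -0.038. Rescaling nuclear-encoded genes shifted the median of all genes by 0.37 in Alb-R3 and 0.20 in Alb-Cre; the calls of all genes were then 4644 higher and 500 lower, against 2198 and 1400, in Alb-R3. The causes of these changes were not tested. Counting error was not estimated.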
